A study of Mus musculus with 2 samples.

Results

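The genes described here are 41 mouse genes of the lysosome: 24 hydrolases, 3 soluble proteins that are not enzymes, 6 proteins of the lysosomal membrane, 7 subunits of the V-ATPase and the transcription factor Tfeb. They were taken by their symbols, and all 41 were found among the 55536 annotated genes of the deposited gene tables. Total RNA was sequenced from hippocampal tissue, named as a layer of hippocampus in the labels, of male B6CASTF1/J mice, which descend from a cross of C57BL/6J with CAST/EiJ. The animals were 18 to 20 months old, no treatment or mutation is named, and 300 ng of RNA went into each library. There were 2 libraries, replicate 1 and replicate 2, in 1 group. Both samples carry a shared donor record, so an SD over them measures the spread between these samples, which may be technical. With 1 group no condition could be compared, and an exact sign-flip test of 2 values cannot give a two-sided p below 0.5, so levels, shares and differences between libraries are given without a p-value.

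Lysosomes are acidic organelles in which proteins, glycans, lipids and nucleic acids are broken down. The V-ATPase, a rotary proton pump built of a cytosolic V1 sector and a membrane V0 sector, acidifies the lumen and also loads synaptic vesicles in neurons. Soluble hydrolases work at that acid pH, most of them after delivery by mannose 6-phosphate receptors, and heavily glycosylated membrane proteins line the organelle. Loss of single hydrolases or membrane proteins causes storage diseases, many of which damage the brain. TFEB, a transcription factor of the MiT/TFE family, binds sites with the core CACGTG before many lysosomal genes.

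The tables assigned 34563482 expected counts to genes in replicate 1 and 32370292 in replicate 2. The lysosomal genes held 0.489% and 0.520% of them. Levels are given as TPM, the abundance of transcripts, a measure corrected for transcript length that depends on all other RNA in the library. The small cytoplasmic and nuclear RNA genes Rn7s1, Rn7s2 and Rn7sk alone took 35.4% of TPM in replicate 1 and 35.7% in replicate 2, and mitochondrial genes took 10.7% and 8.94% of counts. Marker genes of the tissue were in place, with medians in replicates 1 and 2 of 277 and 289 TPM for 8 neuronal genes, 146 and 158 TPM for 7 astrocyte genes, 76.7 and 76.6 TPM for 7 oligodendrocyte genes and 19.5 and 20.9 TPM for 8 microglial genes. None of the 5 markers of perivascular macrophages reached 1 TPM in both libraries. The choroid plexus markers stood apart: the 6 genes summed to 36.6 TPM in replicate 1 and 697 TPM in replicate 2, chiefly through Ttr, the carrier of thyroid hormone made by that epithelium.

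All 41 lysosomal genes were detected, meaning that each library gave at least 1 TPM, and 36 of them had at least 5 TPM in both. The background for detection at 1 TPM was 25.7% of all annotated genes and 57.5% of protein-coding genes, and none is given for 5 TPM. The median of the lysosomal genes was 28.4 TPM in replicate 1 and 28.5 TPM in replicate 2, against 14.4 and 14.7 TPM over the 12673 protein-coding genes detected. Of the 41, 27 lay above the protein-coding median, 12 in the highest 10% and 2, Psap and Atp6v0c, in the highest 1%. Mean levels spanned 199-fold, with Naglu at the bottom and Psap, at 597 TPM, at the top. When the genes were put in order of mean level, the ranges of neighbours over the 2 libraries did not overlap for 22 pairs and overlapped for 18, so the order is resolved only in part. In tissue measured as a whole, fewer cells of a type and less RNA per cell cannot be told apart.

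**Figure D1:**
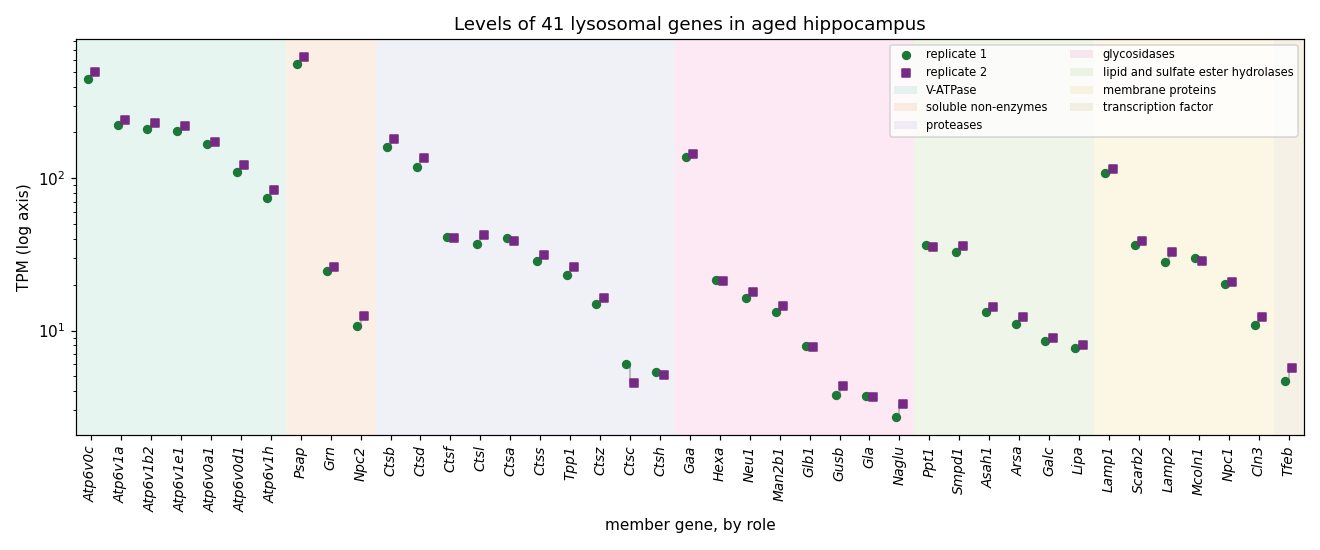
TPM (log axis) of the 41 lysosomal genes in replicate 1 (circles) and replicate 2 (squares), arranged by role on shaded bands and by mean level within each role. The V-ATPase genes lie between 74.3 and 502 TPM, Psap stands above every other gene shown, and the glycosidases run from Gaa near 140.5 TPM down to Naglu with 2.72 and 3.28 TPM.

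The V-ATPase genes formed the highest group. Their median was 205 TPM in replicate 1 and 222 TPM in replicate 2, and the 7 genes together held 47.0% ± 0.143 (SD, n = 2) of the TPM of all 41. Atp6v0c, which encodes the proteolipid of the rotating ring in the membrane, had 449.8 TPM in replicate 1 and 502 TPM in replicate 2. Its gene (ENSMUSG00000024121.13) lies at chr17:24163866-24169702 on the minus strand of mm10. In the V1 sector, Atp6v1a, the catalytic subunit, had 223 and 239.8 TPM, and Atp6v1b2, the subunit that alternates with it in the head of the pump, had 211 and 232 TPM. These ranges overlap, and the ratio of Atp6v1a to Atp6v1b2 was 1.05 ± 0.0165 (SD, n = 2). On complete coding transcripts alone, a comparison chosen after seeing the data, their order was reversed. Atp6v1a then had 150 and 162 TPM and Atp6v1b2 had 206 and 224 TPM.

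Atp6v1e1, part of the peripheral stalks, had 205 TPM in replicate 1 and 222 TPM in replicate 2. Atp6v0a1, the V0 subunit through which protons pass, had 168 and 174 TPM. Atp6v0d1, which links the ring to the central stalk, had 110.3 and 122 TPM. Atp6v1h, which tethers V1 to V0, was the lowest of the 7 with 74.3 and 83.8 TPM. Replicate 2 was thus the higher library for each of them in TPM. Atp6v0c stood 2.05 ± 0.0548 times as high as Atp6v1a and 4.10 ± 0.0299 times as high as Atp6v0d1 (SD, n = 2 each). The ratio to Atp6v1a depends on the transcripts counted. On complete coding transcripts alone Atp6v0c had 445 and 498 TPM and Atp6v1a had 150 and 162 TPM.

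Most subunits that have paralogs were represented almost entirely by a single gene. Atp6v1b2 had 14165 counts in replicate 1 and 14209 in replicate 2, while Atp6v1b1, its paralog known from kidney and inner ear, had 4 counts in each library. Atp6v0d1 had 4194 and 4270 counts, while Atp6v0d2, known from osteoclasts, had 0 and 1. Atp6v1e1 had 6073 and 5948 counts, while Atp6v1e2, known from testis, had 1 in each. The floor of a library was set at 3 counts, which for replicate 1 was 0.0868 CPM, a count relative to the library total, and for replicate 2 was 0.0927 CPM, so no fold is given for genes at this depth. The a subunit differed from these: Atp6v0a1 exceeded Atp6v0a2 by 7.66 ± 0.0407-fold and Tcirg1, the a3 gene, by 20.3 ± 5.91-fold (SD, n = 2 each).

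Of the 18 other V-ATPase genes, 13 were detected and the median was 37.2 ± 2.01 TPM (SD, n = 2). Atp6v1g2, the neuronal form of the G subunit, was the highest with 269 TPM in replicate 1 and 279 TPM in replicate 2, which was 5.26 ± 0.197 times the level of Atp6v1g1. Atp6v0e2 followed with 174 and 189 TPM, against 19.4 and 17.6 TPM for its paralog Atp6v0e. Atp6v1g3, a form known from kidney, was the lowest, with 0 counts in both libraries. Atp6v1c1 exceeded Atp6v1c2 by 87.7 ± 11.9-fold (SD, n = 2). Each position with paralogs, B, C, E, G, a, d and e, thus had 1 form above the others.

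**Figure D2:**
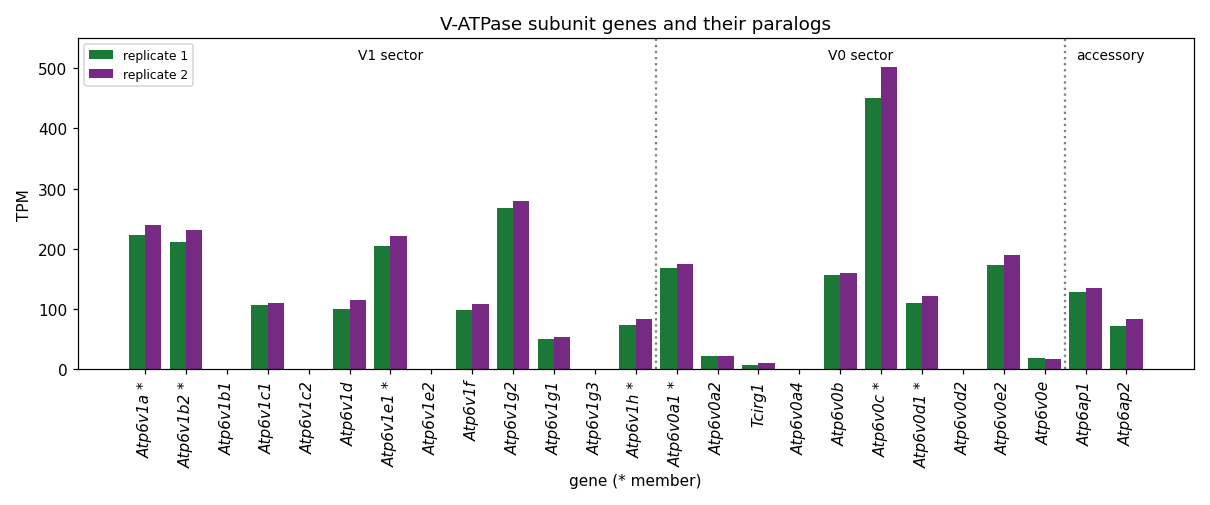
TPM of V-ATPase subunit genes in replicate 1 (left bars) and replicate 2 (right bars), for the V1 sector, the V0 sector and the accessory subunits, with asterisks on the 7 genes described here. Bars for Atp6v1b1, Atp6v1e2, Atp6v1g3 and Atp6v0d2 are too low to be seen beside Atp6v1b2, Atp6v1e1, Atp6v1g2 and Atp6v0d1.

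Psap was the highest of the 41 genes. It encodes prosaposin, which is cut into saposins that present sphingolipids to their hydrolases, and it lies at chr10:60277627-60302597 on the plus strand of mm10 (ENSMUSG00000004207.14). It had 566 TPM in replicate 1 and 627 TPM in replicate 2, and ranked at percentile 99.6 among detected protein-coding genes. Psap stood far above the enzymes that its products assist. Its level was 43.5 ± 0.986 times that of Asah1, 51.1 ± 0.0847 times that of Arsa, 68.3 ± 2.96 times that of Galc and 161 ± 14.0 times that of Gla (SD, n = 2 each). The sizes of the first 2 ratios depend on the processing. In the second transcript table, described below, Psap was 26.8 and 37.4 times as high as Asah1. On complete coding transcripts alone Arsa had only 2.38 and 2.25 TPM, against 566 and 627 TPM for Psap.

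Grn, which encodes progranulin, a partner of prosaposin whose loss causes lysosomal disease and frontotemporal dementia, had 24.6 TPM in replicate 1 and 26.2 TPM in replicate 2. Psap exceeded it 23.5 ± 0.669-fold (SD, n = 2). Grn overlaps Fam171a2 on the opposite strand, which had a mean of 43.0 TPM, and strand use in counting is not stated, so the level of Grn is uncertain. Npc2, which hands cholesterol to Npc1 in the lumen, had 10.7 and 12.48 TPM. These 3 soluble proteins without enzyme activity held 19.7% ± 0.226 (SD, n = 2) of the TPM of the 41 genes, nearly all of it Psap.

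Among the 10 proteases, Ctsb and Ctsd were far above the rest. Ctsb, a cysteine protease, had 161 TPM in replicate 1 and 180.4 TPM in replicate 2, and Ctsd, the main aspartic protease, had 119 and 136 TPM. Ctsb exceeded Ctsd by 1.34 ± 0.0152-fold and Ctsl by 4.31 ± 0.0448-fold (SD, n = 2 each). On complete coding transcripts alone, a comparison chosen after seeing the data, the order of the first pair was reversed, with 67.3 and 72.8 TPM for Ctsb, 118 and 136 TPM for Ctsd and a ratio of 0.555 ± 0.0254 (SD, n = 2). The group median was 32.8 TPM in replicate 1 and 34.9 TPM in replicate 2. Most of the Ctsb level in TPM rested on a short transcript with a retained intron, as described with the transcripts, and Ctsb overlaps Fdft1 (mean 28.6 TPM) on the opposite strand.

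A second tier of proteases lay close together. Ctsf, a cysteine protease, had 40.9 TPM in replicate 1 and 40.48 TPM in replicate 2. Ctsl, another cysteine protease, had 37.1 and 42.2 TPM, and Ctsa, a carboxypeptidase that also protects Neu1 and Glb1 in a complex, had 40.4 and 38.6 TPM. The ranges of these neighbours in the order overlap. Ctss, a cysteine protease known for its high level in microglia and macrophages, had 28.5 and 31.2 TPM, which is above the median of the microglial markers in both libraries. How much of any of these levels comes from microglia was not tested.

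Tpp1, a serine protease that removes tripeptides and is mutated in late infantile neuronal ceroid lipofuscinosis, had 23.3 TPM in replicate 1 and 26.2 TPM in replicate 2. Ctsz, a carboxypeptidase, had 14.96 and 16.5 TPM, with Nelfcd on the opposite strand at a mean of 20.9 TPM. On complete coding transcripts alone Ctsz kept its level and lay above Tpp1, which had 8.73 and 9.68 TPM. The lowest were the exopeptidases Ctsc, which activates serine proteases of immune cells, with 6.03 and 4.50 TPM, and Ctsh, an aminopeptidase, with 5.31 and 5.09 TPM. Ctsb exceeded Ctsh by 32.9 ± 3.61-fold (SD, n = 2).

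Inhibitors of cathepsins were dominated by a single gene. Of 8 inhibitor genes, 6 were detected, and Cst3, cystatin C, had 1035 TPM in replicate 1 and 1079 TPM in replicate 2. It exceeded Ctsb by 6.20 ± 0.318-fold (SD, n = 2). Serpina3n was next with 33.6 and 32.5 TPM, and Stfa1 had 0 counts in both libraries.

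The 8 glycosidases had the lowest median of the enzyme groups, 10.6 TPM in replicate 1 and 11.1 TPM in replicate 2, and the widest spread. Gaa, which breaks down glycogen, had 137 and 144 TPM, far above the rest: it exceeded Hexa, the next, by 6.59 ± 0.344-fold and Naglu, the lowest, by 47.1 ± 4.55-fold (SD, n = 2 each). Hexa, which takes part in degrading the ganglioside GM2, had 21.6 and 21.1 TPM.

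Neu1, the lysosomal sialidase, had 16.3 TPM in replicate 1 and 18.0 TPM in replicate 2. Glb1, the beta-galactosidase, had 7.92 and 7.84 TPM, the smallest relative spread of the 41 genes. In the complex of these 2 enzymes with Ctsa, Ctsa exceeded Neu1 by 2.31 ± 0.233-fold and Glb1 by 5.01 ± 0.129-fold (SD, n = 2 each). Both ratios and the level of Ctsa are uncertain, because Ctsa overlaps Pltp, with a mean of 32.0 TPM, on the opposite strand. Man2b1, which trims mannose, had 13.3 and 14.4 TPM.

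Gusb, the beta-glucuronidase, Gla, the alpha-galactosidase that degrades globotriaosylceramide, and Naglu, an enzyme of heparan sulfate degradation, lay at the bottom of the list. Gusb had 3.79 TPM in replicate 1 and 4.30 TPM in replicate 2. Gla had 3.75 and 3.67 TPM, and Naglu had 2.72 and 3.28 TPM. The ranges of Gusb, Gla and Naglu did not overlap, but each gene had only 168 to 289 counts in a library, and Gusb and Gla nearly touched. On complete coding transcripts alone Gusb had 2.88 and 3.11 TPM, below Gla and within the range of Naglu. The order of these 3 genes is thus not resolved.

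Among the 6 hydrolases of lipids and sulfate esters the median was 12.2 TPM in replicate 1 and 13.2 TPM in replicate 2. Ppt1, which removes palmitate from proteins and is mutated in infantile neuronal ceroid lipofuscinosis, had 36.4 and 35.4 TPM, but Cap1, on the opposite strand with a mean of 117 TPM, overlaps it. Smpd1, the acid sphingomyelinase, had 33.03 and 35.8 TPM, a range that overlaps that of Ppt1. Asah1, the acid ceramidase that acts on the product of Smpd1, had 13.2 and 14.2 TPM, and Smpd1 exceeded it by 2.51 ± 0.0204-fold (SD, n = 2).

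The enzymes of myelin lipids were lower still. Arsa, which removes sulfate from sulfatide, had 11.1 TPM in replicate 1 and 12.3 TPM in replicate 2, and Galc, which then removes galactose, had 8.56 and 8.91 TPM. Lipa, the acid lipase for cholesteryl esters and triglycerides, had 7.73 and 8.09 TPM. On complete coding transcripts alone the order of Arsa, Galc and Lipa was reversed. Lipa then had 7.31 and 7.74 TPM, Galc 6.65 and 7.16 TPM and Arsa 2.38 and 2.25 TPM. Ppt1 and Smpd1 thus stood apart from the other 4 lipid and sulfate ester hydrolases in both libraries.

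Of 28 other lysosomal hydrolases 26 were detected, with a median of 8.64 ± 0.103 TPM (SD, n = 2). Pld3, a nuclease of the endolysosome, was the highest with 227 TPM in replicate 1 and 239 TPM in replicate 2, and Ids, the iduronate sulfatase, followed with 115 and 128 TPM. Ctsw, a protease known from cytotoxic lymphocytes, was the lowest with 1 and 2 counts.

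For the 6 membrane proteins, replicate 1 gave a median level of 29.2 TPM and replicate 2 of 30.6 TPM. Lamp1, a major glycoprotein of the limiting membrane, had 109 and 116 TPM, and its paralog Lamp2 had 28.4 and 32.7 TPM, so that Lamp1 was 3.68 ± 0.208 times as high (SD, n = 2). Scarb2, a membrane glycoprotein that also acts as a sorting receptor, had 36.7 and 38.5 TPM. Mcoln1, a cation channel that releases calcium, had 30.0 and 28.5 TPM.

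Npc1, which exports cholesterol, had 20.2 TPM in replicate 1 and 20.8 TPM in replicate 2, and exceeded Npc2 by 1.77 ± 0.148-fold (SD, n = 2). That ratio and the level of Npc1 are uncertain too, since Npc1 overlaps Rmc1, with a mean of 17.9 TPM, on the opposite strand. Cln3, the membrane protein mutated in Batten disease, was the lowest with 10.8 and 12.3 TPM. Of 23 other lysosomal membrane genes 22 were detected, with a median of 15.3 ± 0.283 TPM (SD, n = 2). Laptm4a was the highest with 84.6 and 93.3 TPM, Tmem106b came next with 81.0 and 87.9 TPM, and Lamp3 was the lowest with 6 counts in replicate 1 and 1 in replicate 2.

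Tfeb itself was scarce, with 4.68 TPM in replicate 1 and 5.66 TPM in replicate 2, or 0.161% ± 0.0120 (SD, n = 2) of the TPM of the 41 genes. Tfe3, a relative that binds the same core, was 2.62 ± 0.312 times as high, and Tfeb was 1.37 ± 0.212 times as high as Mitf (SD, n = 2 each). Among 14 genes of the TFE factors, the Rag and Ragulator complex that holds them at the lysosome and other regulators, 13 were detected. Rraga was the highest with 54.8 and 56.8 TPM, Lamtor2 came next with 44.5 and 50.2 TPM, and Tfec was the lowest with 1 count in replicate 1 and 0 in replicate 2. Genes that sort proteins to lysosomes, 14 in all, were each detected. Sort1, sortilin, led them with 151 and 160 TPM, Rab7 followed with 129.7 and 138 TPM, and Igf2r, the large mannose 6-phosphate receptor, was the lowest with 10.8 and 11.8 TPM.

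The pump and the enzymes that depend on its acid differed in level. The median of the 7 V-ATPase genes exceeded that of the 24 hydrolases by 13.1-fold in replicate 1 and 12.9-fold in replicate 2, a log2 ratio of 3.70 ± 0.0163 (SD, n = 2). The groups were not separate, since Ctsb, Gaa and Ctsd lay above Atp6v1h, the lowest V-ATPase gene, in both libraries. On complete coding transcripts alone Ctsb had 67.3 and 72.8 TPM and Atp6v1h had 64.4 and 72.7 TPM, a ratio of 1.02 ± 0.0314 (SD, n = 2), which is within the spread between the libraries. Few genes carried most of the RNA: the top 2 of the 41 held 33.4% ± 0.483, the top 5 held 54.1% ± 0.446 and the top 10 held 76.7% ± 0.430 of the summed TPM (SD, n = 2 each). Proteases held 15.5%, membrane proteins 7.53%, glycosidases 6.59% and lipid and sulfate ester hydrolases 3.50%.

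The libraries were then compared gene by gene, after scaling by the trimmed mean of M-values (TMM), for genes with a mean of at least 5 CPM. A gene was counted as different when the higher library was at least 25% above the lower. Of the 41 genes 40 passed that minimum and Ctsh, with 4.47 CPM, did not. None of the 40 differed by that much between replicate 1 and replicate 2, where the background was 2.00% of 11417 genes. The log2 ratio of replicate 1 over replicate 2 lay below 0 for 30 of the 40 genes, against 53.4% of all genes tested. The median over the lysosomal genes was -0.06 and that over all genes was -0.01. This side of 0 rests on the scaling: with ERCC spike-in RNA as the scale the median of the lysosomal genes was 0.12 and that of all genes 0.17, and only 2 of the 40 lay below 0.

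The largest ratios toward replicate 2 were those of Naglu, Npc2 and Cln3. Naglu had 168 counts in replicate 1 and 186 in replicate 2, a scaled ratio of 0.858 with a 95% counting interval of 0.692 to 1.06. Npc2 had 811 and 873 counts, a ratio of 0.882 with an interval of 0.801 to 0.972. Cln3 had 268 and 285 counts, a ratio of 0.893 with an interval of 0.753 to 1.06. Of these 3 genes only the interval of Npc2 leaves out 1, and these Clopper-Pearson intervals cover counting error only, as no molecular identifiers are described and reads may not be independent.

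Toward replicate 1 the largest were Ctsc, Hexa and Gla. Ctsc had 279 counts in replicate 1 and 247 in replicate 2, a ratio of 1.07 with an interval of 0.900 to 1.28. Hexa had 1027 and 922 counts, a ratio of 1.06 with an interval of 0.967 to 1.16. Gla had 289 and 260 counts, a ratio of 1.06 with an interval of 0.890 to 1.253. All 3 intervals include 1.

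The interval left out 1 for 9 of the 40 genes, each of them higher in replicate 2: Psap, Atp6v0c, Atp6v1a, Atp6v1b2, Atp6v0d1, Atp6v1h, Ctsb, Ctsd and Npc2. All 9 also lay below 0 with the size factors of DESeq2. With ERCC spike-in RNA as the scale, where the median of all genes was 0.17, all of these but Npc2 lay above 0. Their direction thus depends on the scale used. Intervals are narrower for genes with more counts. The share of all tested genes whose interval leaves out 1 is not given, so this count has no background. Ctsd, with 5840 counts in replicate 1 and 6136 in replicate 2, had a TMM-scaled ratio of 0.904 with an interval of 0.872 to 0.937. All 7 V-ATPase genes lay below 0 under TMM scaling, with a median log2 ratio of -0.08. The 8 neuronal markers also all lay below 0, at a median of -0.08, whereas 6 of 7 oligodendrocyte markers lay above 0, at a median of 0.10. All 3 choroid plexus markers that passed the minimum were higher in replicate 2, by more than 25% and with a median log2 ratio of -2.57. The part of these cell types in the ratios of the lysosomal genes was not tested.

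**Figure D3:**
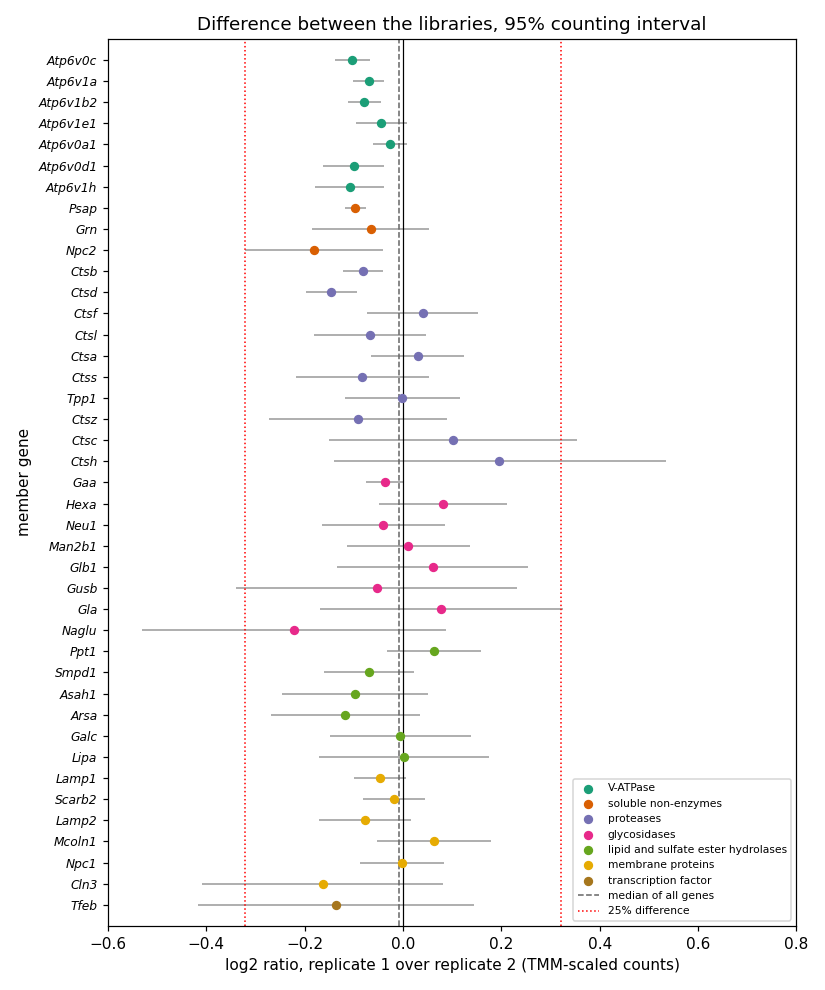
Log2 ratio of TMM-scaled counts, replicate 1 over replicate 2, for each of the 41 lysosomal genes, with 95% counting intervals as bars, the median of all genes as a dashed line and a difference of 25% as dotted lines. Every point lies within the dotted lines, and the V-ATPase genes all lie left of 0.

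Further measures of these genes came from the transcript tables, of which each library had 2. Per the deposited notes, the first was derived from a transcriptome alignment and the second from the read files. Spearman's rho between their mean gene levels over the 41 genes was 0.988, as a description across genes of the same libraries. The first table was lower than the second for every gene, with a median ratio of 0.617. The ratio was lowest for Tpp1 at 0.394, followed by Cln3 at 0.425 and Atp6v1e1 at 0.466, and highest for Tfeb at 0.770. In both tables Psap led and Naglu was last.

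The 41 genes have 253 annotated transcripts, and 39 of them have several. The leading transcript by TPM was the same in both libraries and both tables for 31 of the 39, against 67.4% of 11474 detected protein-coding genes with several transcripts. It was not the same for Asah1, Cln3, Ctsh, Ctsl, Ctss, Lipa, Ppt1 and Tpp1. Within the first table the libraries gave the same leading transcript for 37 of the 39 genes, a count given without a background. The median gene had 94.7% of its TPM in replicate 1 and 95.7% in replicate 2 on transcripts annotated as protein-coding, against 90.2% and 91.1% over detected protein-coding genes. By counts the order turned, with 95.6% and 96.0% for the lysosomal genes against 96.1% and 96.5%.

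For 2 genes, Ctsb and Arsa, the transcript that led by TPM in both libraries and both tables was not protein-coding, and in both cases it has a retained intron. That is 5.13% of the 39 genes, near the background of 3.88% led by a transcript of any non-coding class. Ctsb lies at chr14:63122462-63145923 on the plus strand of mm10. Its transcript Ctsb-202, of 801 bases, held 57.6% of the gene's TPM in replicate 1 and 59.0% in replicate 2, and 61.7% and 63.3% in the second table. By counts it held only 17.2% and 18.1%, while the coding Ctsb-201, of 4743 bases, held 82.5% and 81.6%. The high TPM share of Ctsb-202 thus goes with its short length, and on the TPM of Ctsb-201 alone the gene had 67.3 and 72.8 TPM.

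Arsa, at chr15:89472476-89477425 on the minus strand, differed from Ctsb in that, in the first table, the retained-intron form led by counts as well as by TPM. Arsa-201, a transcript with a retained intron and a length of 2699 bases, held 66.3% of TPM in replicate 1 and 72.1% in replicate 2, and 68.3% and 73.4% of counts. The complete coding Arsa-202 held 21.5% and 18.3% of TPM. In the second table Arsa-201 held 42.0% and 50.9%, a smaller lead over Arsa-202 with 40.9% and 38.4%. By counts of the second table Arsa-201 did not lead, with 42.3% and 49.0% against 55.0% and 49.4% for Arsa-202.

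Other lysosomal genes were split among forms as well. Complete coding transcripts held 30.1% of the TPM of Cln3, 37.2% of Tpp1, 39.2% of Ctsh and 48.3% of Ctsf as means of the 2 libraries in the first table, whereas they held 98.9% for Atp6v0d1, 99.6% for Lamp1 and all of it for Hexa and Gla. By counts of that table they held 57.2% and 50.3% for Cln3 and 62.4% and 67.0% for Tpp1 in replicates 1 and 2. For Ctsh these count shares were 37.9% and 62.4%, and for Ctsf 65.6% and 71.4%. Ctsh had few counts, and its leading transcript was Ctsh-202, annotated for nonsense-mediated decay, in replicate 1 but the coding Ctsh-201 in replicate 2. Such genes have levels in which coding RNA is a part, and the size of the part depends on the table and on whether TPM or counts are used.

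**Figure D4:**
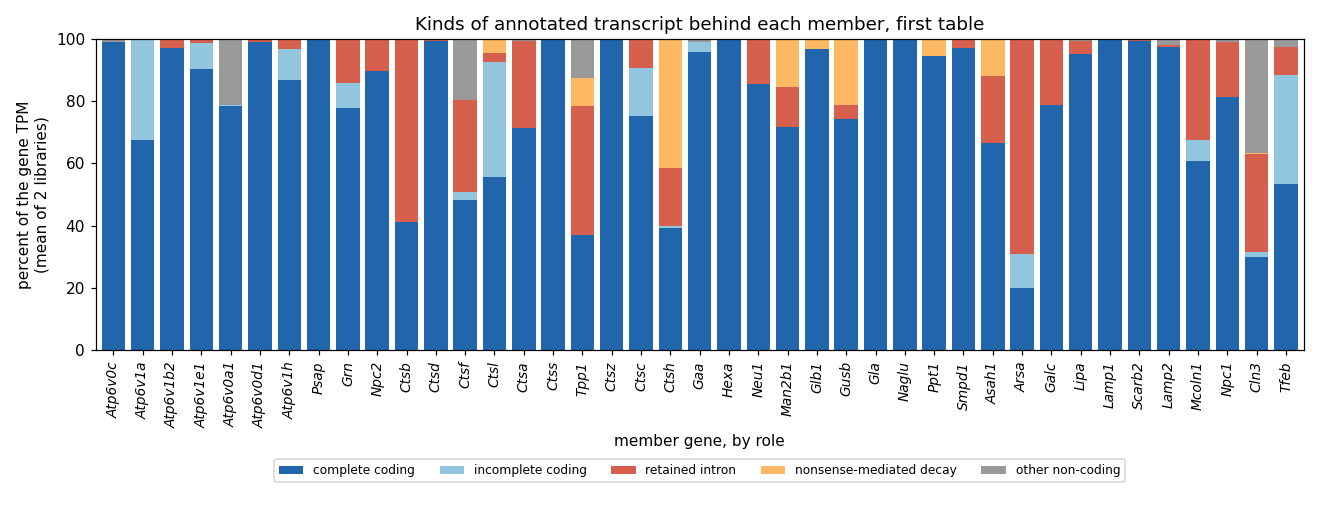
Percent of each gene's TPM in the first transcript table (mean of 2 libraries) by kind of annotated transcript, for the 41 lysosomal genes by role. Retained-intron transcripts make up the largest part for Ctsb, Arsa and Tpp1, and complete coding transcripts fill nearly the whole bar for Psap, Lamp1 and Hexa. For Tpp1 they led complete coding ones in replicate 1 alone (47.4% retained intron, 37.4% complete coding), as replicate 2 had 34.9% retained intron and 37.0% complete coding.

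Several shares differed between the tables far more than between the libraries. Ppt1-203, annotated for nonsense-mediated decay, held 6.01% of TPM in replicate 1 and 4.94% in replicate 2 in the first table, but 65.5% and 69.8% in the second. Gaa-201, which codes for the same number of amino acids as Gaa-203, held 36.3% and 39.5% in the first table and 0 in the second. Ctsd-201 held 26.7% and 32.7% in the first and 0.805% and 1.09% in the second. Gaa-203 and Ctsd-202 nevertheless led their genes in both libraries and both tables, whereas the leading transcript of Ppt1 changed with the table.

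**Figure D5:**
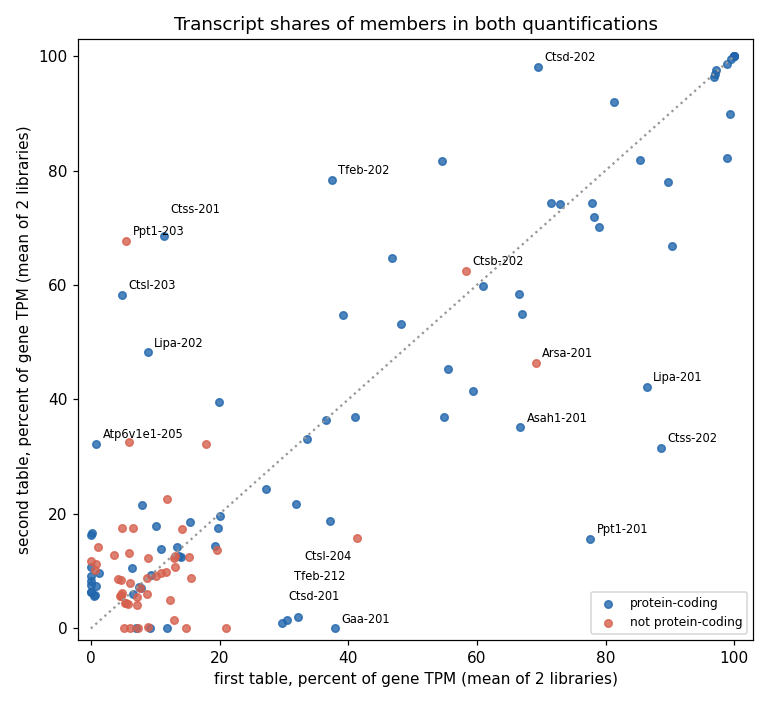
Share of the gene's TPM held by each transcript of the 41 genes with at least 5% in either table, first table on the x axis and second table on the y axis, both as means of 2 libraries in percent. Points on the dotted line have equal shares. Ctsb-202 lies near the line, while Ppt1-203, Ctsl-203 and Ctss-201 lie far above it and Gaa-201, Ctsd-201 and Ppt1-201 far below.

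Lamp2 was the clearest case of several coding forms in use. Its gene, at chrX:38401357-38456454 on the minus strand of mm10, has 3 alternative last exons that give LAMP-2 different transmembrane and cytosolic ends. In human and mouse the form called LAMP-2A takes substrates into the lysosome in chaperone-mediated autophagy. The last 36 coding bases of each transcript are shown without the stop codon, because they are what tells the forms apart, with the last 15 in capitals, the codons of the tyrosine-based signal by which such proteins are sorted to lysosomes.
Lamp2-201: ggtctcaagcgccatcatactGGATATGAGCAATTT
Lamp2-202: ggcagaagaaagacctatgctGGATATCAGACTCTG
Lamp2-203: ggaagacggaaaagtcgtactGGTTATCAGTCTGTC

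These stretches lie at chrX:38405435-38405470, chrX:38421715-38421750 and chrX:38402142-38402177 on the minus strand. By the end of the coding sequence, Lamp2-201 has the tail known as that of LAMP-2A, Lamp2-202 that of LAMP-2B and Lamp2-203 that of LAMP-2C. Lamp2-201 held 22.6% of the gene's TPM in replicate 1 and 31.8% in replicate 2. Lamp2-202 held 40.2% and 32.9%, and Lamp2-203 held 34.4% and 32.8%. All 3 forms were present, and their order was the same in the second table for replicate 1, where they held 20.1%, 40.1% and 33.4%. In replicate 2 the second table gave 28.5%, 32.7% and 32.7%, so there Lamp2-202 and Lamp2-203 had the same share.

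Psap showed a very small exon. Psap-205 held 78.5% of the gene's TPM in replicate 1 and 77.9% in replicate 2 and includes an exon of 9 coding bases at chr10:60297537-60297545, which Psap-202 lacks. The exon is shown in capitals with the spliced coding bases on each side, because it adds residues in frame and sets the 2 forms apart.
Psap-205: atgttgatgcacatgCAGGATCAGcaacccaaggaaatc

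In the second table Psap-205 held 71.9% in both libraries, so inclusion of that exon in most Psap transcripts did not depend on the table. Atp6v1h also had an exon included in part of its transcripts. Atp6v1h-204, of 465 amino acids, held 66.6% of TPM in both libraries, and Atp6v1h-201, of 483 amino acids, held 20.1% and 20.2%. The 54 bases that only the longer of the pair has lie at chr1:5101070-5101123 on the plus strand and are shown in capitals throughout.
Atp6v1h-201: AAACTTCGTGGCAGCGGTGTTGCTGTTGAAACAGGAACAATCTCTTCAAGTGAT

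The second table gave 59.0% and 58.0% for Atp6v1h-204 and 19.4% and 19.9% for Atp6v1h-201, so the ratio of these forms was close in all 4 measurements. For Atp6v0c and Ctsd the deposited posterior SD of the expected count was above 1 count, with 29.4 and 28.5 counts for Atp6v0c and 24.6 and 21.1 counts for Ctsd. Both are small beside their expected counts, which exceed 5840, but they mark gene totals that the division of reads left uncertain. Psap had an SD of 0 as a gene, although that of its transcript Psap-202 was 968 and 886 counts. Ctsd overlaps Gm49369 on the same strand, which had a mean of 0.935 TPM, and the part of that gene in the SD was not tested. In all, 17 of the 41 genes overlap a gene on the opposite strand.

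Promoters were examined because TFEB and its relatives bind the core CACGTG. RefSeq promoter windows, from 250 bases before to 50 bases after the start of a gene in GRCm38.p6, were given for 35 of the 41 genes in 42 windows. Asah1, Atp6v1b2, Atp6v1h, Ctsb, Ctsh and Npc1 had no entry. CACGTG, which reads the same on both strands, was found in 14 of the 42 windows, or 33.3%, against 7.15% of 32851 windows of all genes and 9.84% of 12839 windows of detected protein-coding genes. The genes were Ctsa, Ctsd, Ctsf, Ctsl, Gaa, Gla, Glb1, Naglu, Arsa, Lamp1, Mcoln1, Cln3, Atp6v0d1 and Atp6v1a. Each role with hydrolases or membrane proteins was among them, and so was the V-ATPase, while Psap, the highest gene, had no match in its window.

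Longer sites were rarer. TCACGTGA, which is also its own reverse complement, was found in 7 windows, or 16.7%, against 0.974% of all windows and 1.81% of those of detected protein-coding genes. GTCACGTG, sought on both strands, was found in 10 windows, or 23.8%, against 2.25% and 4.07%. Both longer motifs contain CACGTG and can overlap each other. Lamp1 held 4 copies of CACGTG within 61 bases of its start. Stretches of 60 bases before the RefSeq start of 5 genes are shown. They overlap no annotated exon, although that of Atp6v1a lies within the gene as GENCODE M21 draws it, since some transcripts there start farther upstream. The stretches are printed with CACGTG in capitals, so that the bases around the core can be compared.
Lamp1: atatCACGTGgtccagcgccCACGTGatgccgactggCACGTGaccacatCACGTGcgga
Atp6v1a: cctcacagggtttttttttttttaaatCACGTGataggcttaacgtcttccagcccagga
Gaa: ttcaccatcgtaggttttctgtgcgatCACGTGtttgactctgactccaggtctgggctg
Glb1: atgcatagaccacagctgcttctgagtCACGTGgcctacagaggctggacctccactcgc
Ctsf: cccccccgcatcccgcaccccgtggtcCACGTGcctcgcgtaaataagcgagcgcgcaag

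They lie at chr8:13159096-13159155 on the plus strand for Lamp1, chr16:44139358-44139417 on the minus strand for Atp6v1a, chr11:119267796-119267855 on the plus strand for Gaa, chr9:114401003-114401062 on the plus strand for Glb1 and chr19:4855059-4855118 on the plus strand for Ctsf. The first base of the match nearest the start lay 15 bases before it in Lamp1, 48 in Glb1, 79 in Ctsf, 131 in Atp6v1a and 140 in Gaa. A match describes the letters of the window and is not evidence that a factor binds there in this tissue. Levels of the genes with a match ran from those of Naglu, the lowest of the 41, to 231 TPM for Atp6v1a as a mean of the 2 libraries.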

How the data were processed

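The authors deposited, for each of 2 libraries, a gene table and 2 transcript tables. Per the deposited notes the reads were compared with mm10 and GENCODE M21; their tools, and any use of strand in counting, were not stated there. Per the file headers, columns of the gene table, like those of the first transcript table, follow RSEM: an expected count, TPM, the percent of a gene assigned to each of its transcripts and, as a score of spread, the posterior SD of each count. Columns of the second transcript table, per the file headers, follow kallisto, with an estimated count and TPM. The deposited percent differed from the TPM share by at most 0.170 and 0.104 percentage points. Because mm10 is a C57BL/6J genome, CAST/EiJ reads may be assigned less often.

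The 41 genes, their role groups and the pathway and marker lists were chosen with earlier results of these data known. Samples were grouped by the labels, with replicate numbers from there. Levels are the deposited TPM with the mean and SD over 2 libraries, and detection was a TPM of at least 1 in both. For ratios of replicate 1 over replicate 2, expected counts were rounded and scaled over the whole gene table by TMM in edgeR 4.0.16 (R 4.3.3), with a prior count of 0.5 for log2 ratios, a minimum mean CPM of 5 and exact 95% Clopper-Pearson intervals; these steps were tested on simulated data. ERCC and other non-gene rows, 0.418% and 0.479% of counts, stayed out of library sizes. Named are all 41 genes, the 2 highest and the lowest of each pathway list, and with full values the 3 largest ratios in each direction; genes compared with a member as its paralog, partner or substrate enzyme were added after their values were seen. Promoters are RefSeq sequences of GRCm38.p6, and coding stretches were read from GENCODE M21 transcripts. The alternatives tried were size factors of DESeq2 1.42.0, ERCC scaling, deposited TPM, the second table and rescaled TPM. Other minimum levels, other folds, coding transcripts only and other motifs were tried as well. Levels and ratios on complete coding transcripts were added after the data were seen. Python 3.11.15 was used with numpy 2.4.6, pandas 2.3.3, scipy 1.17.1 and matplotlib 3.10.9.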

Additional observations from a re-analysis of the deposited data

How the results depend on the processing

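No paired analysis was possible because the libraries form 1 group. All 41 genes stayed detected in the second table, after rescaling TPM over protein-coding nuclear genes and in each library alone, and 36 of them at a minimum of 5 TPM. The share of all genes at that higher minimum is not given. The median level, 28.4 TPM, was 47.6 TPM in the second table, 68.4 TPM after rescaling and 31.8 TPM as a mean of log2(TPM + 1), and 28.4 to 28.5 TPM in single libraries. In the same order of alternatives, role medians were 336, 513 and 188 TPM for the V-ATPase, 61.8, 81.3 and 29.8 TPM for proteases, 16.4, 26.1 and 11.8 TPM for glycosidases, 23.4, 30.5 and 15.6 TPM for lipid and sulfate ester hydrolases, 43.5, 60.9 and 57.3 TPM for soluble proteins and 46.6, 71.8 and 31.2 TPM for membrane proteins. The log2 ratio of V-ATPase to hydrolases, 3.70, was 3.58 in the second table, 3.73 on CPM, 3.26 from log means and 4.10 on coding transcripts, so it kept its sign in all of them. The median replicate ratio, -0.06, was -0.12 on deposited TPM, -0.080 in the second table and 0.12, the other sign, under spike-in scaling, which also moved the median of all genes to 0.17. On deposited TPM 1 gene, Ctsc, differed by over 25%, where none did on counts. An alternative chosen after seeing the data, complete coding transcripts only, turned the log2 ratio of Ctsb to Ctsd, 0.42, to -0.85, and lowered that of Ctsb to Ctsl, 2.11, to 1.67 and that of Ctsb to Atp6v1h, 1.11, to 0.03. Complete coding transcripts only also reversed the order of Atp6v1a and Atp6v1b2, Galc and Lipa, Tpp1 and Ctsz, and Gusb and Gla. With coding transcripts only, 22 of 26 genes kept 1 leading transcript throughout, a count given without a background. The coding share of 95.2% was 92.2% in the second table. TCACGTGA was found in 7 windows against 14 for CACGTG, which itself was in 13 when bases after the start were left out. The cause of these shifts was not tested. Levels of genes with few counts, such as Naglu, Gusb and Ctsh, are the least precise.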
